A study of Zea mays subsp. mays with 11 samples.

Results

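The loci described here were the 24-PHAS loci of maize whose Argonaute-loaded phasiRNAs were kept at 5 mm without AGO18. A 24-PHAS locus is a genomic interval whose transcript is cut into phased small RNAs (phasiRNAs) of 24 nt. A locus was kept when the mean of the ago18HM-5mm libraries, in CPM (the reads of a locus scaled to a common library size) plus 1, was at least 0.5 of the mean of the ago18HT-5mm libraries plus 1. Another 10 24-PHAS loci were left out by number. This gave 85 of the 229 24-PHAS loci and of the 659 PHAS loci measured. Of the 75 premeiotic 24-PHAS loci, 68 were kept, and of the 154 meiotic ones, 17 were kept. The other 134 24-PHAS loci fell below the ratio and 430 loci were 21-PHAS loci. Since the 5 mm libraries chose the loci, values at 5 mm are given as a description without a test.

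The study isolated small RNAs from whole anthers of maize by the TraPR method, which it used to profile small RNAs loaded in Argonaute complexes. The ago18HM plants were homozygous for mutations in all AGO18 copies and the ago18HT plants were siblings heterozygous for the same mutations. The ago18a and ago18b mutations had come from an existing double mutant and the ago18c mutation from a Mu transposon insertion line. Libraries were made from 2 mm anthers (3 ago18HT-2mm and 2 ago18HM-2mm libraries), which are meiotic, and from 5 mm anthers (3 ago18HT-5mm and 3 ago18HM-5mm libraries), which are postmeiotic. All groups carried the mutant alleles, so ago18HT was not a wild type, and the labels give the background of all plants only as mostly B73. Plant age was not given, and no gene was measured, so neither the tissue nor the genotype could be checked by marker genes.

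In grass anthers, meiotic 24-nt phasiRNAs are known to begin with long noncoding transcripts that a microRNA-guided Argonaute cuts. An RNA-dependent RNA polymerase makes the cut transcript double stranded, and a Dicer-like enzyme, DCL5 for 24-nt phasiRNAs, then slices it in register from the cut site. The products are loaded into Argonaute proteins. This scheme is background on meiotic loci and should not be taken as given for the premeiotic loci, which were 68 of the 85 kept loci, neither for the cut by a microRNA nor for the Argonaute that holds the products. Premeiotic 24-PHAS loci were defined by the study from abundance in other anther libraries, as loci already abundant in phasiRNAs before meiosis, and meiotic 24-PHAS loci as the remainder.

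The libraries had CPM denominators of 33076189 to 53038060 reads at 2 mm and 5419067 to 17805878 reads at 5 mm, and thus the effects of depth and of anther length cannot be told apart. Between 41123 and 1082289 reads fell in the kept loci. Library ago18HT-2mm replicate 1 stood apart from the other libraries of its group. It was above both other ago18HT-2mm libraries at 77 of the 85 kept loci, by a median of 2.93-fold, and had the highest value of all 11 libraries at 74. Over all 659 loci it was above both at 264. The excess was mainly premeiotic, at 67 of 68 kept premeiotic loci (median 3.17-fold) against 10 of 17 kept meiotic loci (median 1.24-fold). Folds in this paragraph are of CPM plus 1. The same library was below both others at 123 of the 134 other 24-PHAS loci, with a median of 0.498 of their mean, while the median over 21-PHAS loci was 0.998. The tests, counts and medians over the kept loci at 2 mm are therefore given with and without it.

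The major small RNA is the most abundant small RNA of a locus in the study's annotation. For the 10 kept loci with the highest mean CPM over the 5 libraries of 2 mm, all premeiotic, these sequences are shown 5′ to 3′ with the first base in capitals, because the 5′ base is the feature all kept loci shared.
B73_24PHAS_48293: Acuaaaccaaaugaacuccgauug
B73_24PHAS_51550: Aauguucaauugauacaucuucug
B73_24PHAS_47479: Aacaaacuaguuuaaaguucgaac
B73_24PHAS_48466: Auagcggcauacaagauagagguc
B73_24PHAS_4019: Aauggucuauaugcugcuggauuc
B73_24PHAS_11193: Acaagcuauaagaaggggucggac
B73_24PHAS_31167: Agagcuugaaaaacuguugugggc
B73_24PHAS_48464: Aauaaggucgauguggagcgcagc
B73_24PHAS_54886: Agaacgagaucgauaaauggugug
B73_24PHAS_30608: Aacgucaaacuucucacuaagcug

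The 17 kept meiotic loci are shown in the same way, since they are the loci of their class whose ratio was at least 0.5 at 5 mm.
B73_24PHAS_5676: Aacgaguucauaccaagagaagga
B73_24PHAS_6166: Agccacaaccucagacugaagcuu
B73_24PHAS_23733: Aaaaucauuggaagauggccacuc
B73_24PHAS_10002: Aggcuuugcccgugucaaggaagg
B73_24PHAS_17891: Agggaagcguucguugcaugauuc
B73_24PHAS_6282: Aaucaggucgggacugcauccauu
B73_24PHAS_29316: Auccaaacacaucucucgauuauu
B73_24PHAS_28373: Agaagcaaacggaucagcugcagc
B73_24PHAS_51385: Aagucaugugaagaauuucuucug
B73_24PHAS_52261: Agcagucgaggccgaucaagaggc
B73_24PHAS_13534: Agcagggucagaggaggauagugg
B73_24PHAS_38622: Aaggaagacagagaaugaaggagg
B73_24PHAS_1386: Auaagauuuguucggaucuucagu
B73_24PHAS_46057: Acgucgagguuggugucuuucuug
B73_24PHAS_17921: Accuuuugcggacccguuuccucc
B73_24PHAS_46438: Aggaucuuuggcaauguaggcccc
B73_24PHAS_47087: Auguccuuacuggagaagaagcuc

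At all 85 kept loci the major small RNA was 24 nt long and started with A. Among the other 24-PHAS loci, 132 of 134 major small RNAs had this length and 124 started with A. The last base was C at 46 of the 85 kept loci (54.1%) and at 48.5% of the other 24-PHAS loci. The 85 sequences were all distinct, and the longest run of bases that any pair of them had in common was 10. By contrast, the other 134 loci had 124 distinct sequences, and 25 of these loci shared a run of at least 12 bases with another of the set on the same or the opposite strand. Reads that map to several places were included in the counts, and the major small RNAs do not show how frequent such reads were at the kept loci.

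Kept loci were mostly long and dispersed. Their median length was 2811 bp, with 3074 bp for the premeiotic and 1409 bp for the meiotic ones, against 1302.5 bp for the other 24-PHAS loci. They lay on all 10 chromosomes, with 12 on chromosome 4, 11 each on chromosomes 1 and 5, and 2 on chromosome 7. Only 10 of 85 (11.8%) lay within 100 kb of another kept locus, whereas 100 of the 134 other 24-PHAS loci (74.6%) had such a neighbour within their own set. The longest kept locus, B73_24PHAS_4019 on chromosome 1 from 172544492 to 172551593 in B73 RefGen_v5, covered 7102 bp.

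The kept meiotic loci differed from the rest in their position relative to genes. In the RefSeq annotation of the same assembly (Zm-B73-REFERENCE-NAM-5.0), 15 of 17 overlapped a gene, and all 15 genes were protein coding. Of the 132 other meiotic 24-PHAS loci below the ratio, 27 (20.5%) overlapped a gene and 13 overlapped a coding gene. Among the kept premeiotic loci, 15 of 68 (22.1%) overlapped a gene, 9 of them a coding gene. No test was made of these counts. At least 69.6% of each of the 15 meiotic loci lay inside the gene, and 7 lay wholly inside it. B73_24PHAS_6166, on chromosome 1 from 246377592 to 246379201, filled 92.7% of LOC103643566. B73_24PHAS_5676, on chromosome 1 from 231148806 to 231151047, lay wholly inside LOC103643389 and filled 38.8% of it. The 2 meiotic loci without a gene were B73_24PHAS_29316 on chromosome 5 and B73_24PHAS_46438 on chromosome 8. The annotation gave a strand for 5 of the 17 kept meiotic loci and for 67 of the 68 kept premeiotic ones. No kept meiotic locus lay within 100 kb of another kept locus.

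**Figure D1:**
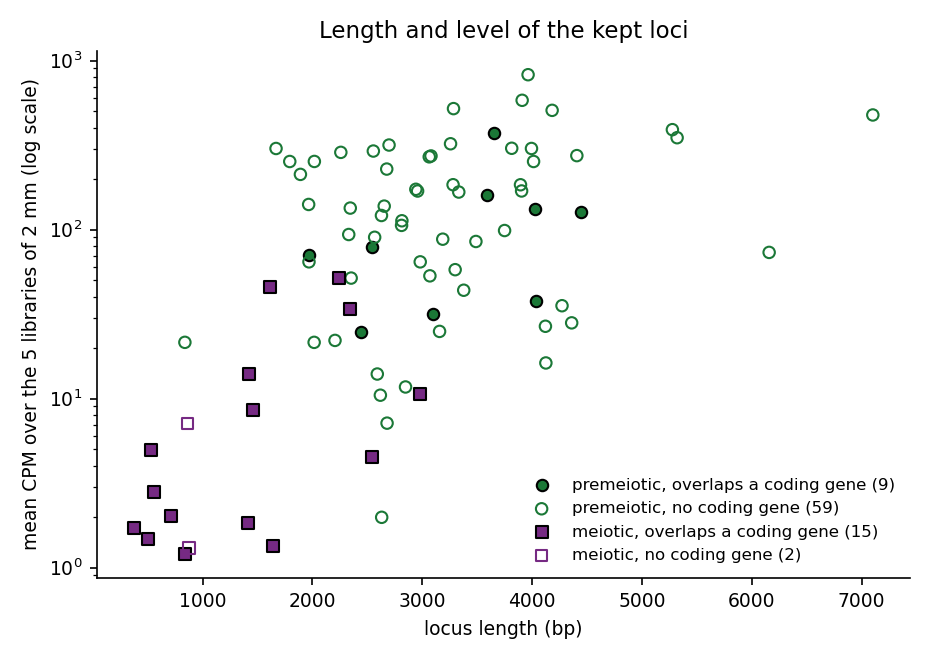
Length in bp (x axis) against mean CPM over the 5 libraries of 2 mm (y axis, log scale) for the 85 kept loci, each a point; filled symbols overlap a RefSeq protein-coding gene. The 17 meiotic loci (squares) were shorter and lower than most of the 68 premeiotic loci (circles), and 15 of them overlapped a coding gene against 9 premeiotic ones.

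Kept premeiotic loci carried nearly all of the signal. In each library they made up 97.6% to 98.7% of the summed CPM of the kept loci. Per kb of locus, the median level in ago18HT-5mm was 23.2 CPM for the 68 kept premeiotic loci, 4.43 CPM for the 17 kept meiotic loci and 919 CPM for the other 24-PHAS loci. In ago18HM-5mm the medians were 29.0, 2.46 and 44.2 CPM per kb. In mutant anthers of 5 mm, the kept premeiotic loci and the other 24-PHAS loci thus had medians of the same order, while in heterozygous anthers they were far apart. The mean in ago18HT-5mm was under 4 CPM at 12 kept loci, 11 of them meiotic, but at only 4 of the 134 other 24-PHAS loci.

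The highest kept locus was B73_24PHAS_48293 on chromosome 9, from 12058888 to 12062850 on the minus strand. It measured 1669.6, 582 and 683 CPM in the ago18HT-2mm libraries and 587 and 601 CPM in the ago18HM-2mm libraries. At 5 mm it measured 478, 548 and 468 CPM in ago18HT and 683, 559 and 392 CPM in ago18HM. The first ago18HT-2mm library stood above all others, and the genotypes overlapped at both lengths. B73_24PHAS_51550, next in level, measured 1048, 466 and 591 CPM in ago18HT-2mm and 345 and 458 CPM in ago18HM-2mm. At 5 mm its values were 427, 492 and 449 CPM in ago18HT and 444, 374 and 256 CPM in ago18HM. Here both mutant libraries of 2 mm were below all 3 heterozygous ones, and the groups overlapped at 5 mm. B73_24PHAS_11193 also had its excess in the first library, with 870 CPM there against 245 and 319 CPM in the other ago18HT-2mm libraries. Its ago18HM-2mm values of 245 and 271 CPM were close to those other libraries.

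The remaining loci of the 10 highest ranged in the same way. Their values ran from 491 to 991 CPM in ago18HT-2mm replicate 1 and from 247 to 478 CPM in the other ago18HT-2mm libraries. In ago18HM-2mm they ran from 174 to 403 CPM. The smallest excess of the first library among the 10 was at B73_24PHAS_54886, which measured 491, 293 and 337 CPM in ago18HT-2mm and 174 and 313 CPM in ago18HM-2mm. Over the 10 loci, the log2 differences at 2 mm were between -0.74 and -0.47 with all libraries and between -0.43 and -0.02 without the first one, and none passed the test.

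**Figure D2:**
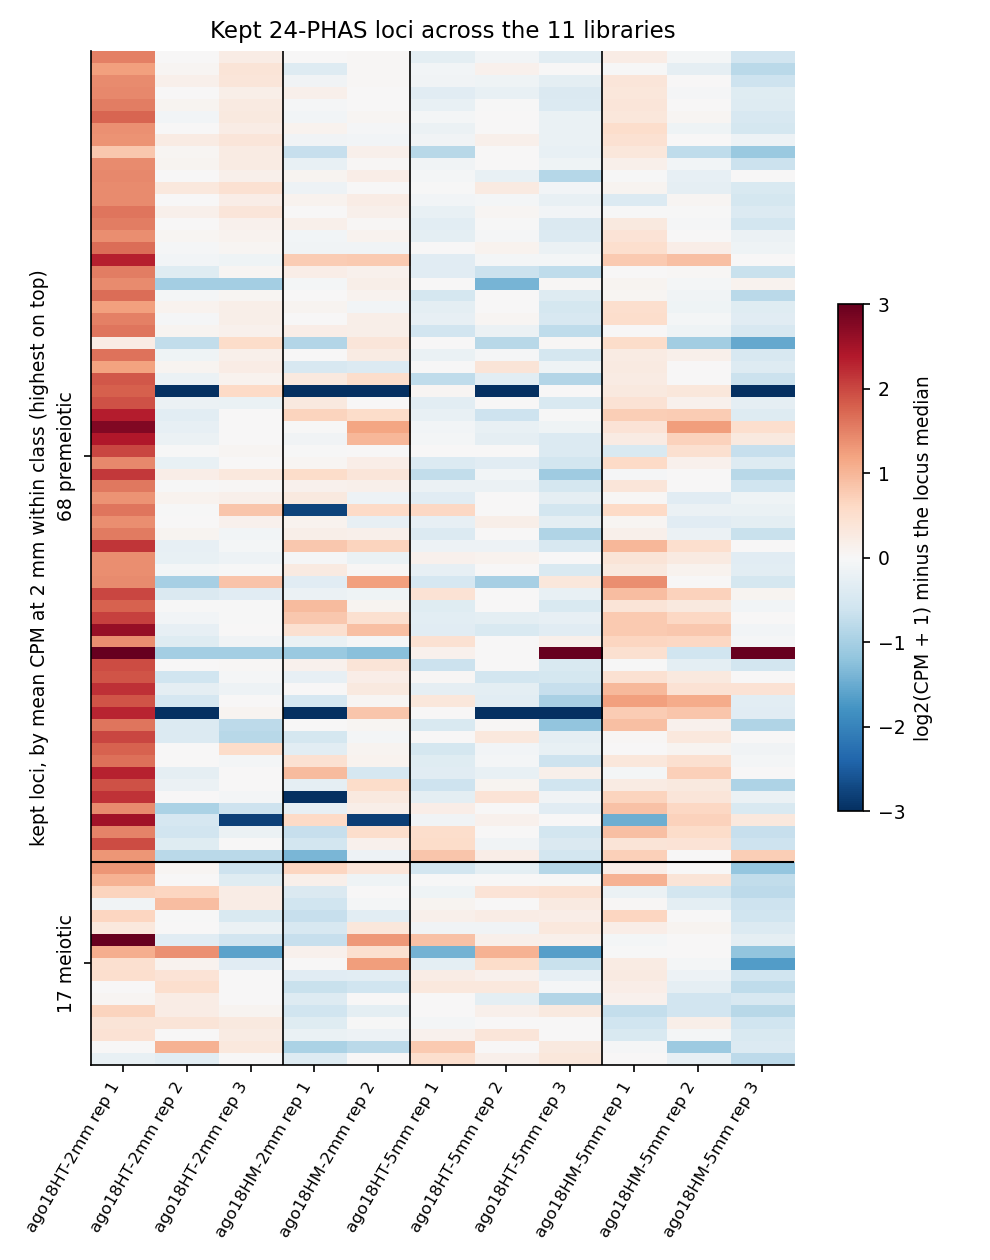
Each row is a kept locus (68 premeiotic above the line, 17 meiotic below it) and each column a library; colour is log2(CPM + 1) minus the median of the locus over the 11 libraries, limited to 3 in either direction. The column of ago18HT-2mm replicate 1 is high at nearly all premeiotic loci, and a few rows switch between high and low across libraries of 1 group.

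At 5 mm, the ratio that chose the loci ran from 0.554 to 3.48 over the 85 kept loci, with a median of 1.17. It was at least 1 at 60 loci, and its median was 1.20 for premeiotic and 0.822 for meiotic loci. The libraries of both genotypes overlapped at 72 kept loci. All ago18HM-5mm libraries were above all ago18HT-5mm libraries at 7 kept loci, all premeiotic, and below them at 6, all meiotic, against 15.3% and 24.7% of all 659 loci. Nothing is read from these shares because the same values chose the loci.

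The 7 premeiotic loci that were above at 5 mm, named after their values were seen, were B73_24PHAS_3767, B73_24PHAS_4531, B73_24PHAS_27008, B73_24PHAS_29597, B73_24PHAS_29634, B73_24PHAS_35802 and B73_24PHAS_36146, with ratios from 1.59 to 2.06. B73_24PHAS_29597, on chromosome 5 from 83370911 to 83373563, measured 53.7, 48.7 and 51.8 CPM in ago18HT-5mm and 76.8, 138 and 81.6 CPM in ago18HM-5mm. At 2 mm it measured 395, 47.9 and 57.2 CPM in ago18HT and 56.6 and 131 CPM in ago18HM. With 1 CPM added to both, its value in ago18HT-2mm replicate 1 was 7.41-fold the mean of the other libraries of that group. B73_24PHAS_3767, on chromosome 1, measured 660, 123 and 118 CPM in ago18HT-2mm and 220.4 and 225 CPM in ago18HM-2mm, a log2 difference of 0.88 ± 0.28 without the first library (limma adjusted p = 0.0526) and of 0.07 ± 0.65 with it.

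The members just inside the ratio were all meiotic. They were B73_24PHAS_1386 at 0.554, B73_24PHAS_46438 at 0.555 and B73_24PHAS_23733 at 0.596. Just outside were the meiotic loci B73_24PHAS_48861 at 0.451 and B73_24PHAS_41611 at 0.467 and the premeiotic locus B73_24PHAS_26178 at 0.490. Low loci are drawn toward a ratio of 1 by the added CPM. Without it, 4 of the 17 kept meiotic loci had a ratio under 0.5, and none of the 134 other 24-PHAS loci reached 0.5.

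Outside the loci left out by number, B73_24PHAS_26178 and B73_24PHAS_35105 were the premeiotic loci that were not kept. B73_24PHAS_35105, on chromosome 6, measured 1048, 826 and 854 CPM in ago18HT-5mm and 42.2, 64.0 and 50.6 CPM in ago18HM-5mm, a ratio of 0.0585. Its 2 mm values were also apart, with 567, 1479 and 1246 CPM in ago18HT and 80.4 and 120 CPM in ago18HM. In ago18HT-2mm replicate 1 it was lower than in the other libraries of the group, as at most of the other 24-PHAS loci and opposite to most kept loci. B73_24PHAS_26178 varied within its groups, with 123, 156 and 34.0 CPM in ago18HT-5mm and 25.3, 38.8 and 88.2 CPM in ago18HM-5mm.

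The 2 mm libraries had no part in the choice of loci, so the genotypes were compared there by a test. With limma on log2(CPM + 1) and Benjamini-Hochberg adjustment over the whole table of 659 loci, 0 of the 85 kept loci were lower and 0 were higher in ago18HM at an adjusted p under 0.05 and a fold change over 1.5. Over all loci the same calls were made at 17.0% in the lower and 1.97% in the higher direction, and 109 of the 134 other 24-PHAS loci were called lower. At an unadjusted p under 0.05, 7 kept loci were lower and 0 were higher, against 20.6% and 10.6% of all loci. Without ago18HT-2mm replicate 1 these counts were 5 and 5, against 21.9% and 9.71% of all loci, so the one-sided split was not seen without this library. A voom fit on reads recovered from the CPM called 3 kept loci lower and 0 higher, against 17.5% and 2.28% of all loci. The same fit without this library called 4 lower and 2 higher, against 20.5% and 3.79%. The loci called higher there, named after their values were seen, were B73_24PHAS_3767 and B73_24PHAS_36146, with log2 differences of 0.89 and 0.90 and adjusted p-values of 0.0392 and 0.0396 by limma-voom.

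The median log2 difference between ago18HM and ago18HT at 2 mm was -0.46 over the kept loci, -0.02 over all 659 loci and -2.18 over the other 24-PHAS loci. It was -0.46 for the premeiotic and -0.54 for the meiotic kept loci. Of the kept loci 77 of 85 were below 0, against 338 of all 659 loci. Without ago18HT-2mm replicate 1 the median of the kept loci was 0.04, with 37 of 85 below 0 against 295 of all 659 loci. The median of the other 24-PHAS loci was then -2.50. The class medians of the kept loci then parted, at 0.08 for premeiotic and -0.31 for meiotic loci. In that fit 1 kept locus was called lower, B73_24PHAS_46438, against 19.1% of all loci, and 0 were called higher, against 2.73%. The median standard error of a kept locus was 0.48 with all libraries and 0.31 without this one.

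These data do not show that the genotypes were equal at each kept locus. The 95% interval of the difference lay wholly above -1, that is above a 2-fold decrease, at 4 kept loci with all libraries and at 59 without ago18HT-2mm replicate 1. Over all 659 loci the interval lay so at 393 and 439. It lay wholly below -1 at 0 kept loci in either fit, and at 86 and 113 of the other 24-PHAS loci. The ago18HM-2mm libraries were both below all ago18HT-2mm libraries at 18 kept loci and above them at 0, where 25.5% and 23.8% of all loci were placed so. Without ago18HT-2mm replicate 1 these counts were 19 and 23, against 30.5% and 33.2%.

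**Figure D3:**
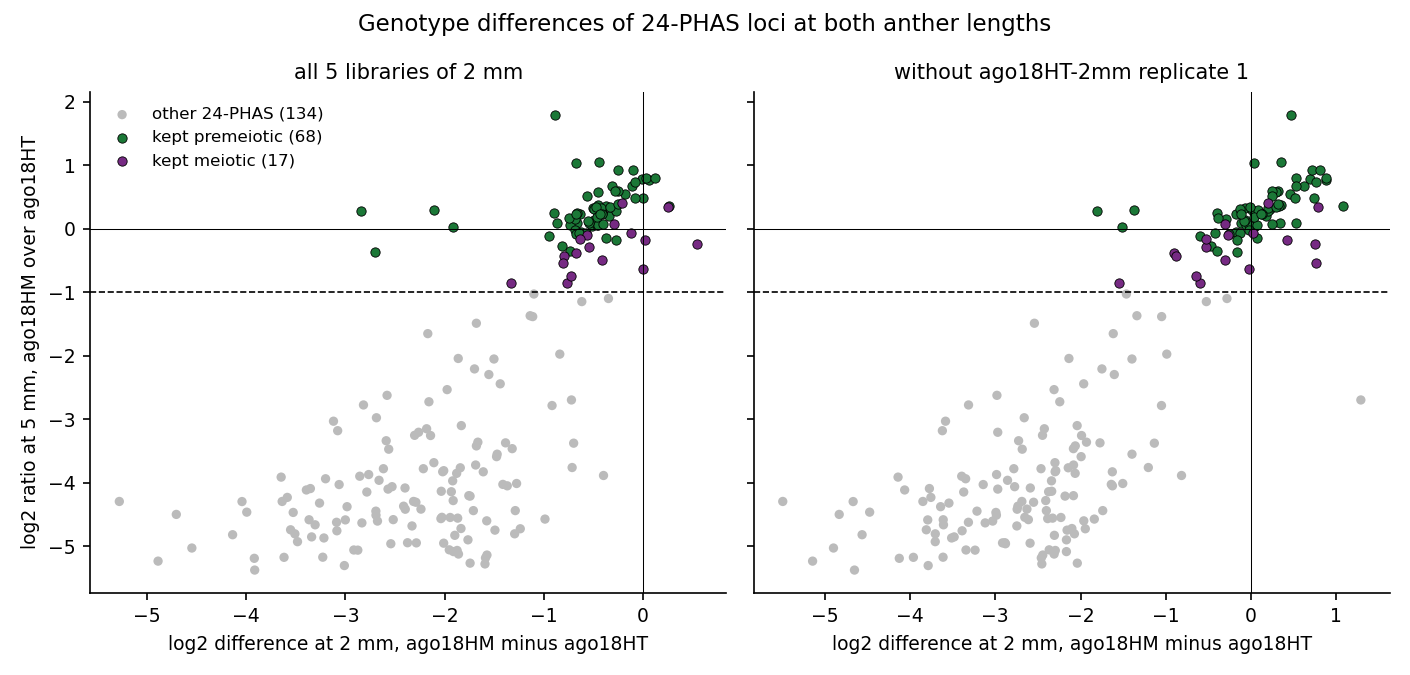
Log2 difference between ago18HM and ago18HT at 2 mm from limma (x axis) against the log2 ratio of ago18HM to ago18HT at 5 mm (y axis) for the 85 kept and 134 other 24-PHAS loci, with all libraries (left) and without ago18HT-2mm replicate 1 (right); the dashed line is the ratio of 0.5. The y axis chose the loci; along the x axis the kept loci centred on -0.46 and 0.04 and the others on -2.18 and -2.50.

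Of the 7 kept loci with an unadjusted p under 0.05 at 2 mm, 4 were meiotic, and these include the 3 loci just inside the 5 mm ratio. B73_24PHAS_46438 measured 1.17, 3.39 and 1.66 CPM in ago18HT-2mm and 0.113 and 0.217 CPM in ago18HM-2mm. The mutant values rested on 6 and 8 reads, and the genotypes did not overlap. Its log2 difference was -1.33 ± 0.42 (SE; limma adjusted p = 0.0526), and -1.55 ± 0.45 without ago18HT-2mm replicate 1 (adjusted p = 0.0340). At 5 mm it measured 2.68, 1.13 and 1.61 CPM in ago18HT and 1.07, 0 and 0.599 CPM in ago18HM, where the 0 allows up to 0.554 CPM (3 reads, counting error only).

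B73_24PHAS_1386 lay wholly inside the coding gene LOC100282966 on chromosome 1. It measured 3.07, 1.995 and 1.71 CPM in ago18HT-2mm and 0.698 and 1.08 CPM in ago18HM-2mm, a log2 difference of -0.77 ± 0.27 (limma adjusted p = 0.0788), and of -0.60 ± 0.28 without the first library (adjusted p = 0.190). B73_24PHAS_23733, a higher locus that overlaps LOC100191507, measured 44.6, 43.8 and 32.4 CPM in ago18HT-2mm and 20.4 and 27.6 CPM in ago18HM-2mm, a log2 difference of -0.73 ± 0.28 (limma adjusted p = 0.109), and of -0.65 ± 0.31 without the first library (adjusted p = 0.205). At both loci the groups did not overlap at 2 mm or at 5 mm, and neither passed the test. B73_24PHAS_13534 measured 2.24, 3.54 and 2.22 CPM in ago18HT-2mm and 1.02 and 1.14 CPM in ago18HM-2mm, with an adjusted p of 0.125 by limma, and of 0.140 without the first library.

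The 3 premeiotic loci with an unadjusted p under 0.05 were B73_24PHAS_438, B73_24PHAS_26095 and B73_24PHAS_48464. B73_24PHAS_438, on chromosome 1 from 10958176 to 10962079, measured 326, 149 and 165 CPM in ago18HT-2mm and 101 and 105 CPM in ago18HM-2mm. Both mutant libraries were below the heterozygous ones, and the log2 difference was -0.95 ± 0.33 (limma adjusted p = 0.0791) with all libraries and -0.60 ± 0.24 (adjusted p = 0.116) without the first one. B73_24PHAS_26095, on chromosome 4, measured 564, 259.7 and 289 CPM in ago18HT-2mm and 187 and 209 CPM in ago18HM-2mm, with an adjusted p of 0.106 by limma, and of 0.156 without the first library. At 5 mm the genotypes overlapped at both loci.

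At 4 further meiotic members the genotypes overlapped at 2 mm. B73_24PHAS_5676, the highest meiotic member at 2 mm, measured 91.8, 37.9 and 23.4 CPM in ago18HT-2mm and 57.2 and 47.1 CPM in ago18HM-2mm. Its log2 difference was 0.25 ± 0.55, and 0.78 ± 0.45 without ago18HT-2mm replicate 1. B73_24PHAS_6166 measured 81.0, 39.2 and 29.8 CPM in ago18HT-2mm and 43.6 and 35.5 CPM in ago18HM-2mm. At both loci the first heterozygous library was the highest, as at the premeiotic loci, and the mutant libraries lay within the heterozygous range. B73_24PHAS_51385 had the highest log2 difference of all kept loci at 0.55 ± 0.63 with all libraries (0.75 ± 0.70 without the first one), from 4.81, 3.45 and 2.27 CPM in ago18HT-2mm and 3.15 and 8.95 CPM in ago18HM-2mm. B73_24PHAS_10002 had its lowest heterozygous value in the first library, with 11.3, 24.2 and 14.5 CPM in ago18HT-2mm against 7.79 and 11.6 CPM in ago18HM-2mm, and its log2 difference was -0.68 ± 0.34, and -0.91 ± 0.34 without the first library (limma adjusted p = 0.0954). With all libraries the adjusted p-values of these 4 loci ran from 0.215 to 0.836 by limma.

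Most remaining meiotic members were low, and their log2 differences at 2 mm lay between -0.81 and 0.02 with all libraries and between -0.53 and 0.76 without the first one. B73_24PHAS_47087, inside LOC103636345, measured 1.12, 0.998 and 1.49 CPM in ago18HT-2mm and 0.905 and 1.52 CPM in ago18HM-2mm. B73_24PHAS_6282 measured 10.7, 8.31 and 7.19 CPM in ago18HT-2mm and 5.68 and 10.8 CPM in ago18HM-2mm. At both loci the mutant and heterozygous libraries overlapped. B73_24PHAS_17891 was at 18.5, 11.4 and 8.03 CPM in ago18HT-2mm and at 6.69 and 8.95 CPM in ago18HM-2mm. B73_24PHAS_38622, wholly inside LOC100279827, was at 1.97, 2.33 and 1.85 CPM in ago18HT-2mm and at 1.19 and 1.84 CPM in ago18HM-2mm, just below the heterozygous range. B73_24PHAS_52261, B73_24PHAS_46057 and B73_24PHAS_17921 had log2 differences of -0.63 ± 0.31, -0.54 ± 0.29 and -0.41 ± 0.26, which were -0.53, -0.53 and -0.31 without the first library, and in each the mutant libraries were both below the heterozygous ones.

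Summed over the kept loci, the libraries measured 24764, 8073 and 9535 CPM in ago18HT-2mm and 8158 and 9054 CPM in ago18HM-2mm. The mutant values lay within the range of the other 2 heterozygous ones. The ratio of the group means was 0.609, and 0.978 without ago18HT-2mm replicate 1. For the other 24-PHAS loci these ratios were 0.180 and 0.152, and for 21-PHAS loci 1.22 and 1.22. At 5 mm the kept loci summed to 7359, 7797 and 6927 CPM in ago18HT and to 10405, 8515 and 6160 CPM in ago18HM. The mutant libraries were thus more spread, on both sides of the heterozygous ones, and the ratio was 1.14. Of all 24-PHAS CPM, the kept loci took 2.67% to 3.04% in ago18HT-5mm and 33.5% to 38.6% in ago18HM-5mm.

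**Figure D4:**
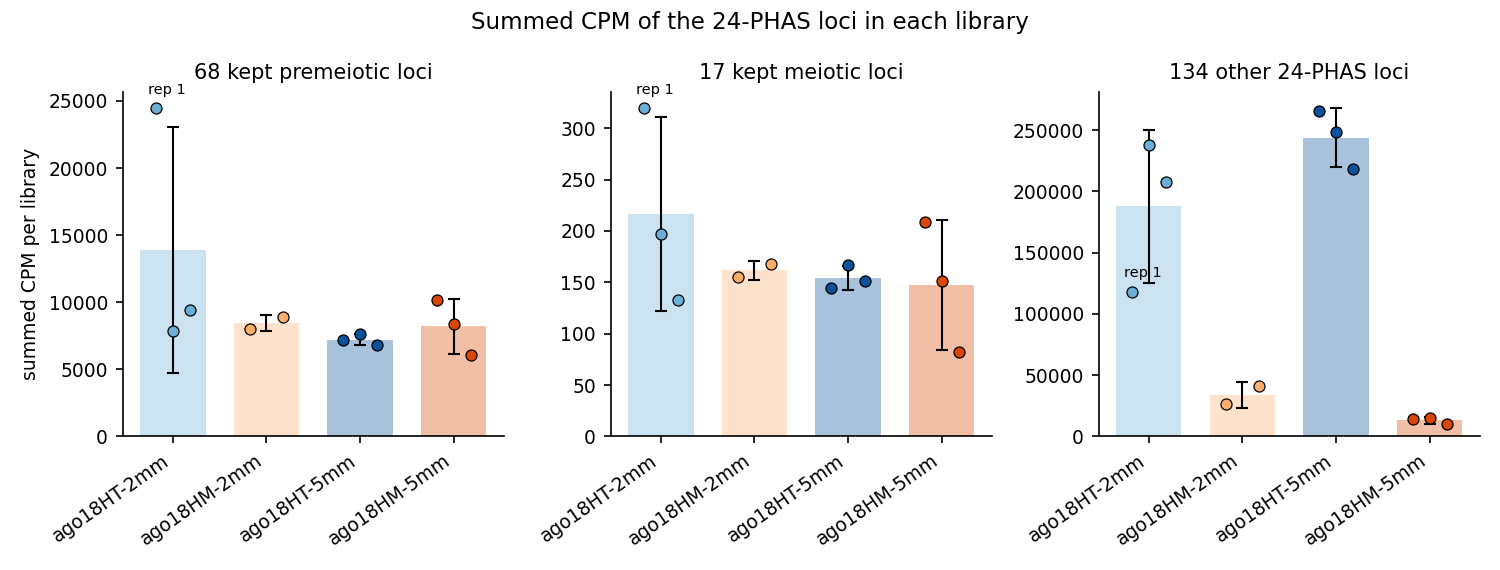
Summed CPM of the 68 kept premeiotic loci, the 17 kept meiotic loci and the 134 other 24-PHAS loci; points are libraries, bars group means and error bars SD (n = 3, and n = 2 for ago18HM-2mm). Replicate 1 of ago18HT-2mm is the highest library in the first 2 panels and the lowest of its group in the third, where both mutant groups are far below the heterozygous ones.

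CPM is a share of a library, so lower values at the other 24-PHAS loci raise the remaining values if their reads are in the denominator, which the sources used here do not state. The other 24-PHAS loci were equal to 11.8% to 26.5% of the denominator in the ago18HT libraries and 0.975% to 4.15% in the ago18HM libraries. With them taken out of the denominator, the ratio of the summed kept loci was 0.869 at 5 mm and 0.527 at 2 mm, or 0.788 at 2 mm without ago18HT-2mm replicate 1. The median ratio of the kept loci at 5 mm was then 0.899 in place of 1.17, and 22 loci in place of 60 were at or above 1. In a limma fit on these values 6 kept loci were called lower at 2 mm and 0 higher, against 18.8% and 0.455% of all loci, and the median of all loci moved by -0.25 on the log2 scale. Leaving out ago18HT-2mm replicate 1, this fit called 5 kept loci lower and 0 higher, against 22.3% and 0.455% of all loci. Which side of 1 a kept locus fell on thus depended on the denominator at many loci.

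Several kept loci varied widely between replicate libraries. On the log2(CPM + 1) scale, the SD within groups had a median of 0.57 over the kept loci and was above 1 at 9, of which 7 were premeiotic. Leaving out ago18HT-2mm replicate 1, the median was 0.31 and 7 loci were above 1, and over the 5 mm libraries alone it was 0.35 with 4 loci above 1. For the other 24-PHAS loci the median was 0.47 with all libraries and 0.36 without this one, and for the 21-PHAS loci 0.24 in both. With all libraries the SD was above 1 at 4 of the 134 other 24-PHAS loci and at 14 of the 430 21-PHAS loci. Without ago18HT-2mm replicate 1 it was above 1 at 3 and 15 of them. At B73_24PHAS_8592, on chromosome 2 from 3276367 to 3279698, the values fell into 2 levels. Libraries measured 545, 15.9 and 238 CPM in ago18HT-2mm, and 16.9 and 17.3 CPM in ago18HM-2mm. At 5 mm they measured 163, 14.8 and 157 CPM in ago18HT and 192, 199 and 14.5 CPM in ago18HM. Leaving aside the first ago18HT-2mm library, 5 libraries were between 157 and 238 CPM and 5 between 14.5 and 17.3 CPM, with both levels present in each genotype. Its log2 difference at 2 mm of -2.85 ± 1.65 was the lowest of the kept loci and did not pass the test (limma adjusted p = 0.292). With ago18HT-2mm replicate 1 left out it was -1.81 ± 1.66 (adjusted p = 0.529).

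B73_24PHAS_22200, on chromosome 4 from 38855939 to 38858290, was high in 3 libraries and near 0 in the others. It measured 257, 0.302 and 0.309 CPM in ago18HT-2mm and 0.226 and 0.108 CPM in ago18HM-2mm. At 5 mm it measured 1.89, 1.65 and 76.4 CPM in ago18HT and 2.70, 0.738 and 58.0 CPM in ago18HM. The high libraries were 1 each of ago18HT-2mm, ago18HT-5mm and ago18HM-5mm. B73_24PHAS_53405, on chromosome 10, had the highest ratio at 5 mm, 3.48, from 17.5, 1.24 and 0.937 CPM in ago18HT and 30.1, 32.1 and 13.5 CPM in ago18HM. At 2 mm it measured 88.7, 0.423 and 18.5 CPM in ago18HT and 0.622 and 32.0 CPM in ago18HM, so low libraries occurred in both genotypes. B73_24PHAS_24069 measured 43.4, 4.44 and 0.112 CPM in ago18HT-2mm and 10.6 and 0.0813 CPM in ago18HM-2mm.

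At B73_24PHAS_54013 a single library was low, ago18HM-2mm replicate 1 with 0.283 CPM, while the other 10 ran from 8.03 to 48.8 CPM. Its log2 difference at 2 mm was -2.11 ± 0.95 (limma adjusted p = 0.164), -0.41 without that library and -1.38 ± 0.88 without ago18HT-2mm replicate 1. B73_24PHAS_52231, on the same chromosome, was also lowest in that library, at 8.65 CPM against 44.2 to 202 CPM in the others. The meiotic members B73_24PHAS_29316 and B73_24PHAS_28373 were stepped as well. B73_24PHAS_29316 measured 31.8 CPM in ago18HT-2mm replicate 1 and 0.0754 to 3.25 CPM in the other 10 libraries. B73_24PHAS_28373 measured 7.39, 9.19 and 0.309 CPM in ago18HT-2mm and 3.34 and 4.53 CPM in ago18HM-2mm.

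**Figure D5:**
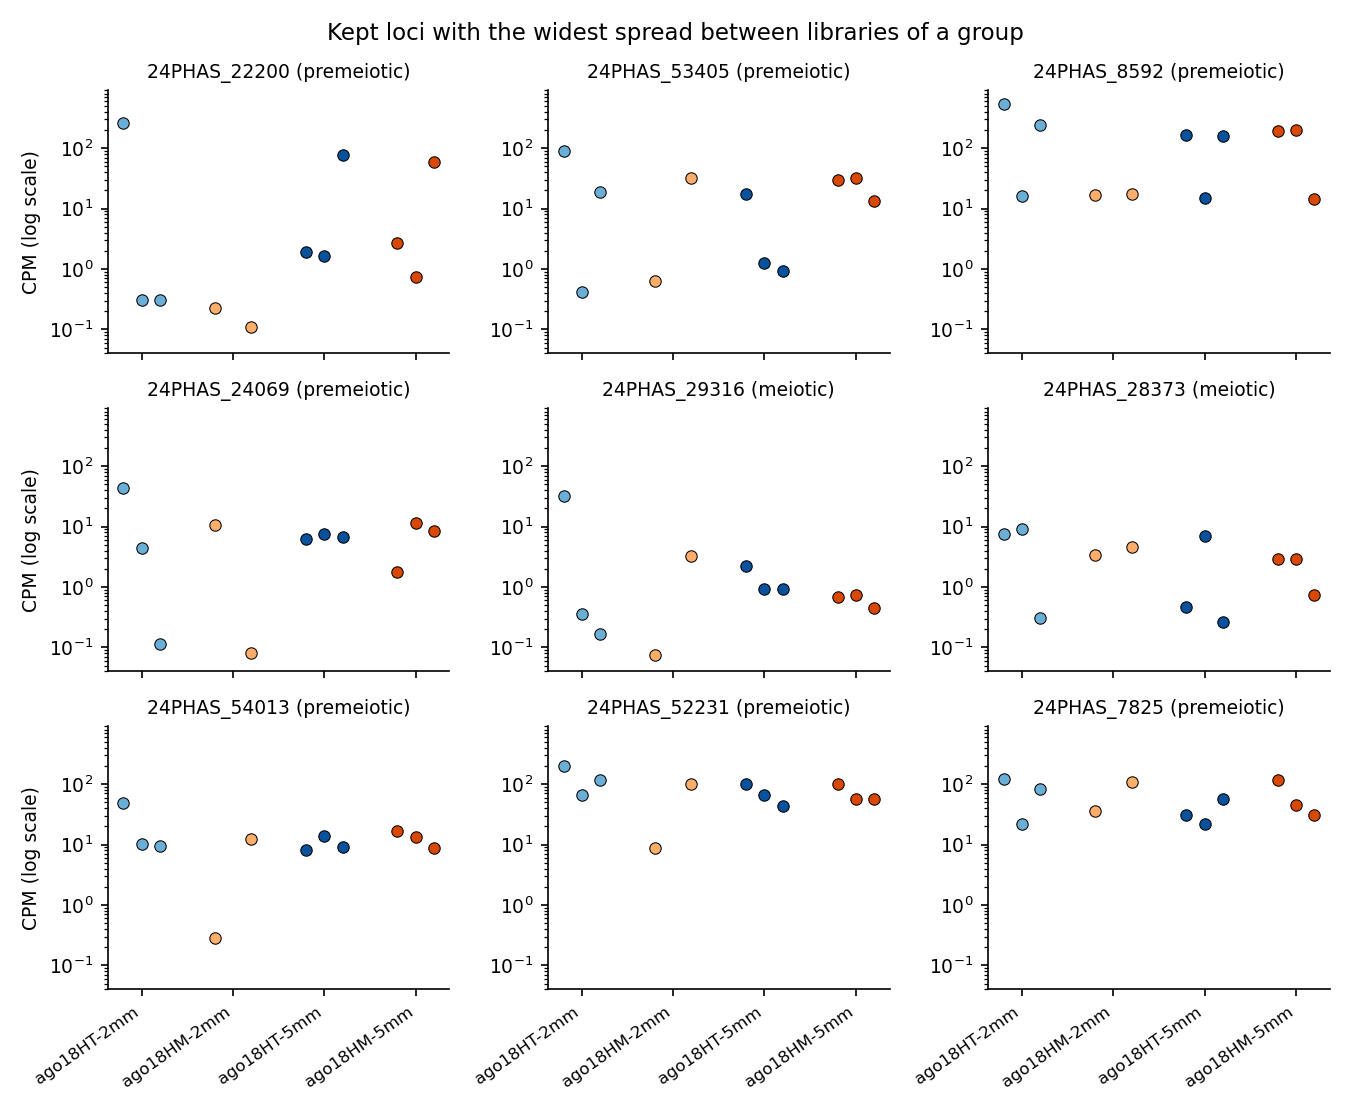
CPM (log scale) in each library, by group, for the 9 kept loci whose within-group SD of log2(CPM + 1) was above 1. At B73_24PHAS_8592 points sit at 2 levels in both genotypes, and at B73_24PHAS_22200 only 3 of the 11 libraries are above 3 CPM.

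At the opposite end, B73_24PHAS_31283 on chromosome 5, 225 bp from the nearest RefSeq gene, was among the 3 highest differences. It measured 589, 108 and 108 CPM in ago18HT-2mm and 212 and 247 CPM in ago18HM-2mm. The log2 difference of 0.26 ± 0.70 became 1.08 ± 0.42 without ago18HT-2mm replicate 1 (limma adjusted p = 0.111). At 5 mm it measured 219, 82.2 and 224 CPM in ago18HT and 233, 210 and 235 CPM in ago18HM, where ago18HT-5mm replicate 2 alone was low.

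Kept loci that were neighbours on a chromosome formed 5 pairs, all premeiotic. B73_24PHAS_48464 and B73_24PHAS_48466, 5780 bp apart on the minus strand of chromosome 9, were both among the 10 highest. Their ratios at 5 mm were 1.13 and 1.27, and their log2 differences at 2 mm were -0.74 and -0.47. B73_24PHAS_48464 had an unadjusted p under 0.05 (-0.74 ± 0.32; limma adjusted p = 0.146), or -0.39 ± 0.21 without ago18HT-2mm replicate 1, and measured 647, 298 and 327 CPM in ago18HT-2mm and 236 and 240 CPM in ago18HM-2mm. Its neighbour measured 991, 369 and 409 CPM in ago18HT-2mm and 403 and 365 CPM in ago18HM-2mm, so the groups overlapped there. The closest pair was B73_24PHAS_47633 and B73_24PHAS_47635 on chromosome 8, with 2538 bp between them and ratios at 5 mm of 1.14 and 1.52.

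From 2 mm to 5 mm, the median of the kept loci moved little apart from the high library. The median log2 ratio of 5 mm to 2 mm was -0.07 in ago18HM and -0.94 in ago18HT, and -0.23 in ago18HT without replicate 1 of 2 mm. For the other 24-PHAS loci it was -1.20 in ago18HM and 0.38 in ago18HT, or 0.19 without that library. Leaving that library out, the log2 ratio was below 0 at 62 of the 85 kept loci in ago18HT and at 49 in ago18HM. Among the 430 21-PHAS loci these counts were 225 and 240. These comparisons use the libraries that chose the loci and were not tested.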

How the data were processed

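Small RNAs from TraPR columns were measured in 11 anther libraries. Per the labels and the study's methods, the authors mapped reads to B73 RefGen_v5 with Bowtie 1.3.1. They counted them with featureCounts 1.6.3, including reads that map to several places, and deposited CPM values from edgeR 4.0.2, 1 column per library. Which read sizes were counted is not given in the sources used here, and 0 value columns lacked a sample. Samples were grouped by title, and replicates came from distinct plants per the study's methods. Class, position, strand and major small RNA of each locus came from the study's locus annotation, whose abundance values were not used. Gene overlaps came from RefSeq (GCF_902167145.1).

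In each library the values were whole multiples of 1 CPM step, within 3.02e-05 reads, which gave the denominators and reads; these are inferred, since the deposited values are CPM, and the denominators need not be whole numbers of reads. A count of 0 allows 3 reads, or 0.0566 to 0.554 CPM. Over the kept loci, log2(CPM + 1) of libraries of 1 group correlated between 0.860 and 0.978 (10 pairs). Libraries of different groups correlated between 0.883 and 0.989 (45 pairs), so these values do not set replicates apart from other pairs.

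Loci reaching 1 CPM in 2 or more libraries (all 659, with all 85 kept) were fitted with limma 3.58.1 in R 4.3.3 on log2(CPM + 1), with 4 group means over 11 libraries and eBayes with trend. The two-sided p-values received a Benjamini-Hochberg adjustment over 659 loci, and loci were called at an adjusted p under 0.05 and a fold change over 1.5. The pseudocount understates changes of low loci. Loci, lists and named loci were chosen with earlier results of these data known. The text names the 10 highest loci at 2 mm, all meiotic members, the 3 highest and 3 lowest differences, the 3 largest SDs at 2 mm, the neighbours of the ratio threshold and the premeiotic loci not kept. Other loci were named after their values were seen.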

Additional observations from a re-analysis of the deposited data

How the results depend on the processing

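With 2 or 3 libraries per group and 1 heterozygous library that stood apart, a 2-fold difference at 2 mm was within the interval of most kept loci. The number of kept loci was 82 to 91 under the alternatives, and 84 to 87 when 1 library of 5 mm was left out. The count of kept loci called lower at 2 mm was 0 in the main fit. It was 1 with centring on 21-PHAS loci, 2 with eBayes without trend, 1 with robust eBayes, 1 with a replicate block, 3 with voom on recovered reads and 6 with the other 24-PHAS loci out of the denominator; in these fits 16.7% to 18.8% of all loci were called lower. Without ago18HT-2mm replicate 1 the last 2 gave 4 and 5; these 4 fits were chosen after seeing the data. Leaving out 1 library of a group of 3 gave 0 or 1, where 15.2% to 19.1% of all loci were called lower. The locus called most often was B73_24PHAS_46438, and the block called B73_24PHAS_438 only (log2 difference -1.09). Leaving out a library of ago18HM-2mm left 1 library in that group, so only effect sizes are given there. Without its replicate 2 the log2 differences were -3.60 at B73_24PHAS_52231 and -3.81 at B73_24PHAS_54013. The count called higher was 2 with voom without ago18HT-2mm replicate 1 and 0 under the other alternatives run. The median log2 difference of the kept loci was -0.74 to 0.04 when 1 library was left out, and above 0 only without ago18HT-2mm replicate 1; under the other alternatives with all libraries of 2 mm it was -0.39 to -0.71, and 0.05 and -0.25 in the voom and denominator fits without that library. The ratio of the summed CPM of the kept loci at 2 mm was 0.502 to 0.978 when 1 library was left out, and as a share of the CPM of all PHAS loci it was 1.11 in place of 0.609, and 2.19 without ago18HT-2mm replicate 1. Centring on 21-PHAS loci moved the median of all loci by -0.16. With only the 2 mm libraries, 0 kept loci were called. That fit made fewer calls, at 8.83% of all loci lower and 0.913% higher, against 17.0% and 1.97% in the main fit. Over 811 values of named loci under the alternatives, the sign changed 31 times at loci called in neither fit. Deviations of libraries with the same replicate number correlated between -0.45 and 0.57, and those with different numbers between -0.61 and 0.61. Centring within groups of 2 or 3 libraries ties these values to each other, so they cannot show whether the numbers paired the samples. The planned edgeR and DESeq2 fits were not run, because too few low values were at hand for the test of whole reads set for count models; voom stood in for them. The cause of the changed calls was not tested.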
